A study of Mus musculus with 18 samples.

Results

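The 10 genes described here encode laminin chains and nidogens of the basement membrane. They were chosen by gene symbol, as 10 of the 54532 genes in the count table, and comprise the laminin alpha chains *Lama1*, *Lama2*, *Lama3*, *Lama4* and *Lama5*, the beta chains *Lamb1* and *Lamb2*, the gamma chain *Lamc1* and the nidogens *Nid1* and *Nid2*. Of these, 9 were among the 14317 genes that passed the filter on low counts, and *Lama3* did not. RNA was sequenced in bulk from CH310T1/2 cells, a mouse mesenchymal line also written 10T1/2, in 18 libraries that form 6 groups of 3. WT cells and a pair of FOXS1 KO clones were either uninduced (labelled control) or TGF-β1 + DMII stimulated, which meant 12 h of TGF-β1 at 1 nM before 48 h of the adipogenic mix DMII (dexamethasone, isobutylmethylxanthine, insulin and indomethacin). Each KO line was derived from a single cell, both were compared with the same WT libraries, and the labels do not say that libraries of a group came from separate cultures, so p-values measure only the spread between these libraries.

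A laminin is a trimer of 1 alpha, 1 beta and 1 gamma chain, which cells secrete into a sheet at their surface. The alpha chain carries the domains that bind integrins and dystroglycan, the gamma chain binds nidogen, and nidogens also bind type IV collagen and perlecan, which ties the laminin sheet to the collagen network. In adipose and muscle tissue such a sheet surrounds each mature adipocyte and each muscle fibre, and mesenchymal cells contribute some of its chains.

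Library totals ran from 15576685 to 42005596 counts. *Foxs1*, the targeted gene, was measured first as a check of the labels. Its level in CPM (counts scaled to library size, here with TMM factors, and the unit used throughout) was 1.64 to 3.25 in uninduced WT and 1.85 to 3.13 in stimulated WT. In the libraries labelled FOXS1 KO clone 1 it was 23.4 to 27.1 uninduced and 52.9 to 56.8 stimulated, and in those labelled clone 2 it was 21.1 to 23.9 and 38.0 to 42.8. *Foxs1* mRNA was therefore higher, not lower, in every library labelled KO. The gene totals do not show the edit, and each direction given for a clone rests on the labels. The study reported loss of FOXS1 protein in both clones by western blot and a disrupted locus by sequencing of genomic DNA. Counts of mRNA per gene measure neither. Among markers of other cell types, 5 of 7 endothelial, 5 of 6 epithelial, 6 of 7 skeletal muscle and 4 of 6 haematopoietic genes stayed below 1 CPM in every library, and the Schwann cell factor *Sox10* had no count. Of the 10 mesenchymal markers, 9 were at 1 CPM or more in every library. Adipocyte and myofibroblast markers moved with the groups. The summed adipocyte markers were at 55.5 to 57.5 CPM in stimulated WT, 177 to 199.9 CPM in stimulated clone 1 and 48.3 to 53.5 CPM in stimulated clone 2, and the summed myofibroblast markers were at 3064 to 3243, 847 to 903 and 684 to 795 CPM in the same order. The sums and the single markers went different ways in clone 2. Of 7 adipocyte markers, 6 were called higher and 1 lower than stimulated WT in stimulated clone 1 (background 9.42% and 9.6% of tested genes). Stimulated clone 2 had 3 called higher and none lower (7.95% and 8.94%). *Adipoq* and *Plin1* had no count in stimulated WT, so their fitted changes have no finite size. With a floor of 3 counts over that group for both, the list medians were 3.07 and 1.40 (log2, clone 1 and clone 2). Of 5 myofibroblast markers tested, 3 were called lower and none higher in each stimulated clone. Their part in the results on laminins and nidogens was not tested, and in bulk RNA fewer cells of a type cannot be told apart from less RNA per cell.

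The promoters of 4 members are shown, whose transcripts moved most clearly between groups among the 5 members with a promoter sequence. RefSeq sequences on GRCm38.p6 covered 5 of the 10 members, with a window of 250 bases before to 50 after the transcript start. The stretch of each window before the first annotated exon within that window is printed, 5′ to 3′ on the gene's strand. It is given for *Nid1* (chr13:13437352-13437550, plus strand), *Lama2* (chr10:27616943-27617192, minus strand), *Lamb1* (chr12:31265043-31265233, plus strand) and *Lamb2* (chr9:108479612-108479735, plus strand). Capitals mark GC boxes (GGGCGG) and the SMAD element CAGAC on either strand.
Nid1: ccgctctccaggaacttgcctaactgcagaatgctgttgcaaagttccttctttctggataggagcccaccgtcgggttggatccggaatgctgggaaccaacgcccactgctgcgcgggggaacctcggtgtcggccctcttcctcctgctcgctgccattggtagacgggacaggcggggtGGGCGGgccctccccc
Lama2: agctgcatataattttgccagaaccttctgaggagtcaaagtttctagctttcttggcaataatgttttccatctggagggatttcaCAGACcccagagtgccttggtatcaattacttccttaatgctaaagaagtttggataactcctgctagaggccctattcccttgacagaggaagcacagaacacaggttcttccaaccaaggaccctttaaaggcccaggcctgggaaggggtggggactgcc
Lamb1: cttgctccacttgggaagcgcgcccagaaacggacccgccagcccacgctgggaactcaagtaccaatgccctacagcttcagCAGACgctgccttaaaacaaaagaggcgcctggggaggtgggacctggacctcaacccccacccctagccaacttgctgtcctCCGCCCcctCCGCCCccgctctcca
Lamb2: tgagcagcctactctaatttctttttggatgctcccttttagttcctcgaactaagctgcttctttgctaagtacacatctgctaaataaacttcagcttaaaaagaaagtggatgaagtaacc
The *Nid1* window of 300 bases held 20 CpG dinucleotides and that of *Lamb1* 18, against a median of 7 over all 32851 promoter windows. The *Lama2* window held 1 CpG and that of *Lamb2* held 4. Over the whole windows of 300 bases, GGGCGG occurred once in *Nid1* and *Lama2*, at 2 positions in *Lamb1* and not in *Lamb2*, and in 35.7% of all windows. The *Lama2* match lay outside the printed stretch. CAGAC occurred in the windows of *Lama2*, *Lamb1* and *Lamb2* but not of *Nid1*, and in 49.6% of all windows. In *Lamb2* it lay only outside the printed stretch, which therefore has no capitals. The forkhead letters GTAAACA were in 3.65% of all windows and in none of these 4 or of *Lama5*, and TATAAA was in 13.6% of all windows and in none of the same 5. The printed *Lama2* stretch lies within an intron of a longer annotated transcript whose gene spans chr10:26980036-27619758.

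Per kilobase of exonic length, *Nid2* had the highest level of the members, and all alpha chains but *Lama4* were in the lower ranks, joined by *Nid1* in clone 1. In uninduced WT, *Nid2* was at 268 ± 15.9 CPM per kb (mean ± SD, n = 3), *Lamb2* at 72.8 ± 4.37, *Lamc1* at 48.0 ± 7.72 and *Nid1* at 47.9 ± 2.33, with *Lamc1* and *Nid1* not separated by their libraries. *Lama4* and *Lamb1* followed at 25.7 ± 0.894 and 25.0 ± 1.21 CPM per kb and likewise overlapped. *Lama2* was at 0.672 ± 0.180 and *Lama5* at 0.231 ± 0.177 CPM per kb, and *Lama3* and *Lama1* were lower still at 0.0333 and 0.0266. In stimulated WT, *Lamb1* at 49.8 ± 1.56 CPM per kb overlapped *Lamc1* at 48.1 ± 1.14, and *Lamb2* at 23.2 ± 0.548 had moved below *Lama4* and *Nid1*. *Nid2* was first in all 6 groups, although in stimulated clone 2 its libraries overlapped those of *Lamc1*, at 69.0 ± 2.74 and 68.1 ± 2.44 CPM per kb. This order depends on the length used, since per kb of coding length *Nid2* was first in 4 of the 6 groups, behind *Lamb1* in stimulated WT and behind *Lamc1* and *Lama4* in stimulated clone 2. The plot of CPM by library shows all 10 genes.

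**Figure D1:**
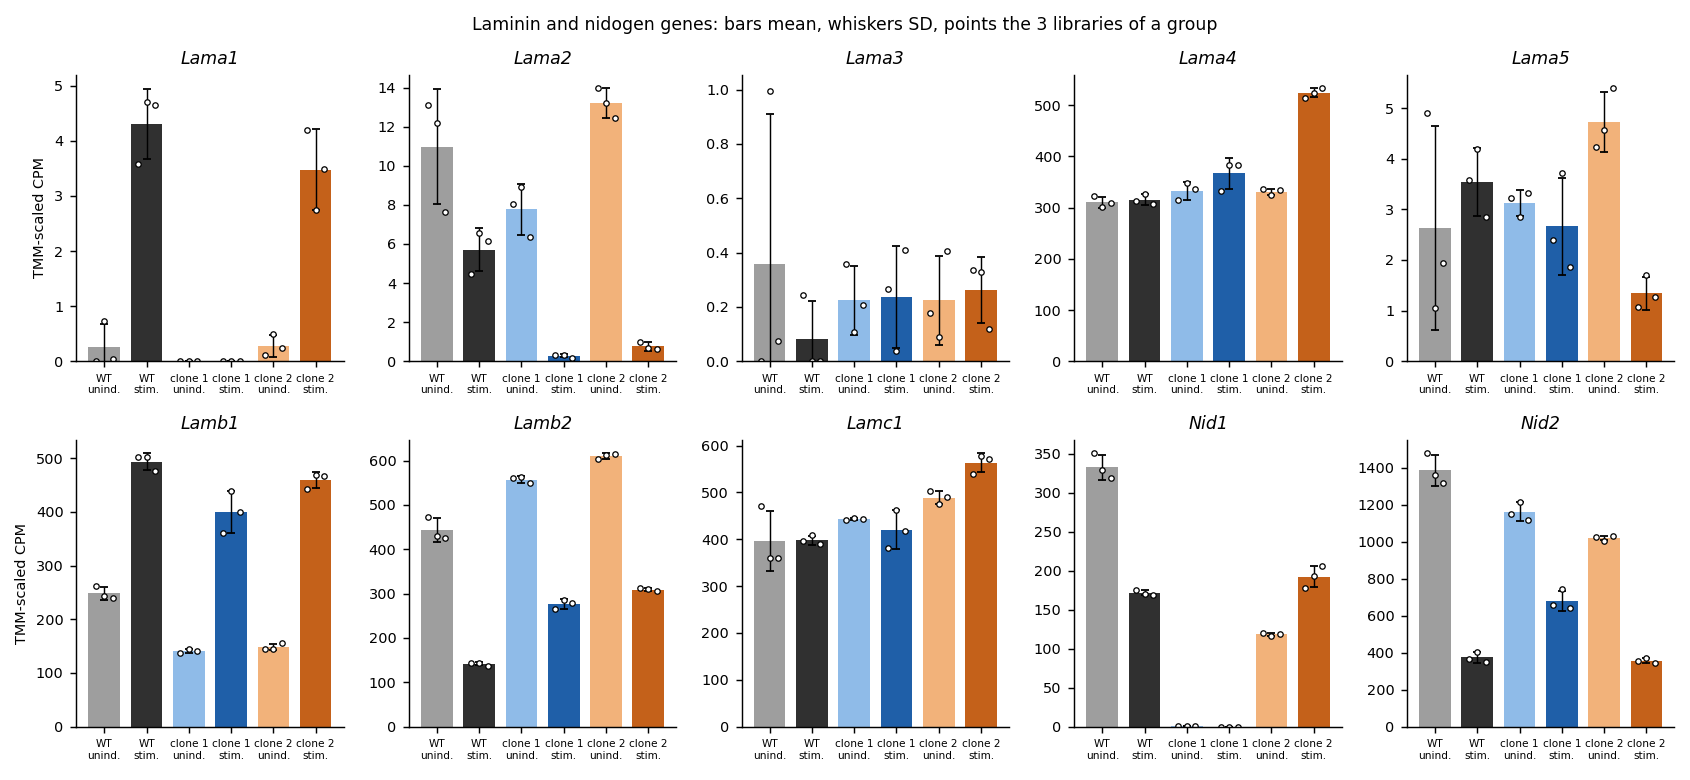
TMM-scaled CPM (linear axes from 0, a scale of its own for each gene) of the 10 laminin and nidogen genes in the 6 groups (unind., uninduced; stim., TGF-β1 + DMII stimulated). Bars are means, whiskers SDs and points the 3 libraries of a group; *Nid1* and *Lama1* were at or near 0 in clone 1, and stimulated *Lama2* was below 1.1 CPM in every clone library.

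Among the alpha chains, *Lama4* carried nearly all of the signal. *Lama4* encodes the alpha chain typical of mesenchymal and endothelial cells and of the adipocyte basement membrane. Its share of the summed alpha chain CPM per kb was 96.4% ± 1.00 in uninduced WT, 95.9% ± 0.410 in stimulated WT, 97.3% ± 0.280 and 99.1% ± 0.213 in uninduced and stimulated clone 1, and 95.6% ± 0.106 and 98.8% ± 0.162 in uninduced and stimulated clone 2 (SD, n = 3). *Lama4* was at 322, 301 and 308 CPM in uninduced WT and at 314, 327 and 306 CPM in stimulated WT. It was at 515, 524 and 533 CPM in stimulated clone 2, above every other library of the series. The log2 difference from stimulated WT was 0.73 ± 0.05 in clone 2 and 0.22 ± 0.05 in clone 1 (SE, adjusted p = 2.25e-13 and 0.000508, edgeR quasi-likelihood test with Benjamini-Hochberg adjustment, as for all adjusted p below). Both lay within the absolute log2 fold change of 1 that a DEG needed here beside an adjusted p below 0.05.

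*Lama2* encodes the alpha chain of the muscle and nerve basement membrane, whose loss causes congenital muscular dystrophy. In uninduced cells it was at 13.1, 12.2 and 7.62 CPM in WT, 8.04, 8.90 and 6.37 in clone 1 and 14, 13.2 and 12.5 in clone 2, and the WT libraries overlapped both clones. In stimulated cells it was at 4.45, 6.56 and 6.13 CPM in WT, 0.319, 0.332 and 0.182 in clone 1 and 1.01, 0.654 and 0.601 in clone 2, so that no clone library reached a WT library. Relative to stimulated WT, *Lama2* was 20.1-fold lower in clone 1 (log2 fold change -4.33 ± 0.31, adjusted p = 3.63e-13) and 7.47-fold lower in clone 2 (-2.90 ± 0.27, adjusted p = 2.25e-10). These levels rest on 19 and 38 counts over the 3 libraries of clone 1 and clone 2, against 379 in WT. On stimulation *Lama2* fell 27.2-fold in clone 1 and 17.3-fold in clone 2, and the WT change was -0.93 ± 0.19 on the log2 scale (adjusted p = 0.000109), inside the fold limit. The responses of the clones differed from that of WT by -3.84 ± 0.38 and -3.19 ± 0.33 (adjusted p = 1.63e-09 and 6.18e-09). Clone 1 was also below clone 2 in stimulated cells, by 1.43 on the log2 scale (adjusted p = 0.00916), a call that was lost without clone 2 replicate 1 (log2 difference -1.15, adjusted p = 0.081). The study named *Lama2* and *Lama1* among genes of an epithelial mesenchymal transition set that were lower in its stimulated KO clones than in WT. That result was drawn from the same libraries, so their levels in stimulated clones are not independent evidence of that set's direction. Here *Lama2* was lower in both stimulated clones, but *Lama1* only in clone 1, with clone 2 at -0.31 ± 0.51 from WT (adjusted p = 0.647).

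*Lama1* encodes the alpha chain of early embryonic basement membranes. It had 0, 14 and 1 counts in uninduced WT and 73, 109 and 103 in stimulated WT, that is 3.57, 4.71 and 4.64 CPM. Clone 2 had 5, 11 and 4 counts uninduced and 75, 42 and 58 stimulated, at 4.20, 2.75 and 3.49 CPM. The 6 clone 1 libraries had no count of *Lama1* at all. *Lama1* thus rose on stimulation in WT (log2 fold change 4.10 ± 0.67, adjusted p = 2.49e-05) and in clone 2 (3.75 ± 0.66, adjusted p = 6.25e-05), and the responses of WT and clone 2 differed by -0.35 ± 1.00 (adjusted p = 0.853). The size of these responses turned on single uninduced libraries. The WT response was 7.24 without uninduced WT replicate 2 and 3.49 without replicate 3, and the clone 2 response was 4.47 without uninduced clone 2 replicate 2, each still called. In stimulated cells *Lama1* was at least 98.0-fold lower in clone 1 than in WT (adjusted p = 6.2e-07), taking a floor of 3 counts over the group for clone 1, and clone 2 differed from WT by -0.31 ± 0.51 (adjusted p = 0.647). In uninduced cells the bound was only 4.60-fold (adjusted p = 0.0207). Without uninduced WT replicate 2, which held 14 of the 15 counts of its group, that call was lost (adjusted p = 0.33), and the log2 difference between uninduced clone 2 and WT went from 0.04 to 3.17 (adjusted p = 0.0179) and the difference in response of clone 2 to -3.48 (adjusted p = 0.0232). The uninduced call was also lost without clone 1 replicate 1 or 3 (log2 fold change -5.45 in both, adjusted p above the threshold).

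*Lama5* encodes the alpha chain of many epithelial and vascular basement membranes. It was at 4.89, 1.05 and 1.94 CPM in uninduced WT and 3.57, 4.19 and 2.84 in stimulated WT, and at 4.24, 4.56 and 5.39 in uninduced and 1.06, 1.70 and 1.26 in stimulated clone 2. In stimulated cells it was lower in clone 2 than in WT by 2.64-fold (log2 fold change -1.40 ± 0.39, adjusted p = 0.00315), and it was not separated from WT in clone 1 (-0.39 ± 0.34, adjusted p = 0.337). *Lama5* fell 3.51-fold on stimulation in clone 2 (adjusted p = 0.000212), a response that differed from that of WT by -2.27 ± 0.52 (adjusted p = 0.00116). Uninduced WT replicate 1 weighed on these values. Without it the WT response became 1.20 (adjusted p = 0.00084), uninduced clone 1 and clone 2 stood 1.02 and 1.61 above WT (adjusted p = 0.00523 and 2.04e-05), and the differences in response became -1.42 for clone 1 (adjusted p = 0.00504) and -3.02 for clone 2 (adjusted p = 2.51e-07). *Lama5* was higher in stimulated clone 1 than in clone 2 by 1.01 ± 0.39 (adjusted p = 0.0379), and leaving out clone 1 replicate 2, clone 2 replicate 1 or clone 2 replicate 3 took that adjusted p to 0.224, 0.139 and 0.104. *Lama3*, the alpha chain of epithelial anchoring complexes, had 19 counts in uninduced WT replicate 2 and between 0 and 9 in every other library. Tested without the filter, its log2 differences between stimulated clones and WT were 1.50 ± 1.10 and 1.64 ± 1.11 (adjusted p = 0.358 and 0.327), so no difference was detectable at this depth.

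The beta chains moved in opposite directions on stimulation in all 3 genotypes. *Lamb1*, the widely expressed beta chain, was at 262, 243 and 240.0 CPM in uninduced WT and at 503, 502 and 476 CPM in stimulated WT. *Lamb2*, the beta chain of the neuromuscular junction and the kidney filter, was at 474, 431 and 425 CPM in uninduced WT and at 143, 143 and 137 CPM in stimulated WT. In each genotype every stimulated library was above every uninduced library for *Lamb1* and below every one for *Lamb2*. The *Lamb1* response was 0.99 ± 0.05 in WT, 1.51 ± 0.06 in clone 1 and 1.63 ± 0.06 in clone 2 on the log2 scale, and passed both limits in the clones. The *Lamb2* response was -1.65 ± 0.05 in WT, -1.01 ± 0.04 in clone 1 and -0.98 ± 0.04 in clone 2, and passed both limits in WT and clone 1. The calls at the fold limit turned on small shifts, since without the filter *Lamb1* in WT and *Lamb2* in clone 2 were past it (1.03 and -1.01) and *Lamb2* in clone 1 was not (-0.99).

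The clones started from less *Lamb1* and more *Lamb2*. Uninduced *Lamb1* was at 137, 144 and 141 CPM in clone 1 and 145, 144 and 155 in clone 2, all below WT, with log2 differences of -0.82 ± 0.06 and -0.74 ± 0.06 (adjusted p = 2.26e-13 and 1.51e-12). Stimulated *Lamb1* was at 361, 438 and 399 CPM in clone 1 and 442, 469 and 467 in clone 2, with differences of -0.30 ± 0.05 (adjusted p = 1.67e-05) and -0.10 ± 0.05 (adjusted p = 0.108). *Lamb1* lies on chromosome 12, where 357 genes averaged 5 CPM or more. Their median log2 difference from WT was -0.25 and 0.18 in stimulated and -0.19 and 0.20 in uninduced clone 1 and clone 2. *Lamb2* in stimulated cells was at 265, 286 and 279.7 CPM in clone 1 and 312, 309.5 and 305 in clone 2, above all WT libraries. Its log2 fold change was 1.13 ± 0.05 in clone 2 (adjusted p = 4.32e-19), which passed the fold limit, and 0.97 ± 0.05 in clone 1 (adjusted p = 1.44e-17), which did not unless clone 1 replicate 1 was left out (1.00).

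The ratio of *Lamb1* to *Lamb2*, each per kb of exonic length, was higher in stimulated than in uninduced libraries of each genotype and lower in both clones than in WT, with no overlap between those groups. It was 0.344 ± 0.00390 in uninduced WT and 2.14 ± 0.0185 in stimulated WT (SD, n = 3). In clone 1 it was 0.155 ± 0.00443 and 0.884 ± 0.0521, and in clone 2 it was 0.149 ± 0.00537 and 0.912 ± 0.0372. *Lamb1* thus made up 25.5% ± 0.237 of the summed beta chain CPM per kb in uninduced WT and 68.1% ± 0.193 in stimulated WT. In stimulated clone 1 and clone 2 it made up 46.7% ± 1.53 and 46.3% ± 1.06, beside *Lamb2* at 52.8% ± 1.36 and 50.8% ± 0.940. Per kb of coding length *Lamb1* held the larger share there, 58.2% and 57.1%, so which chain led in the stimulated clones turned on the length used, while stimulated WT remained higher at 77.4%. The rest was *Lamb3*, a beta chain of epithelial anchoring complexes, which held 0.194% ± 0.116 of the sum in uninduced WT and 17.2% ± 0.779 in uninduced clone 2. The plot of shares by library shows how little the 3 libraries of a group differed.

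**Figure D2:**
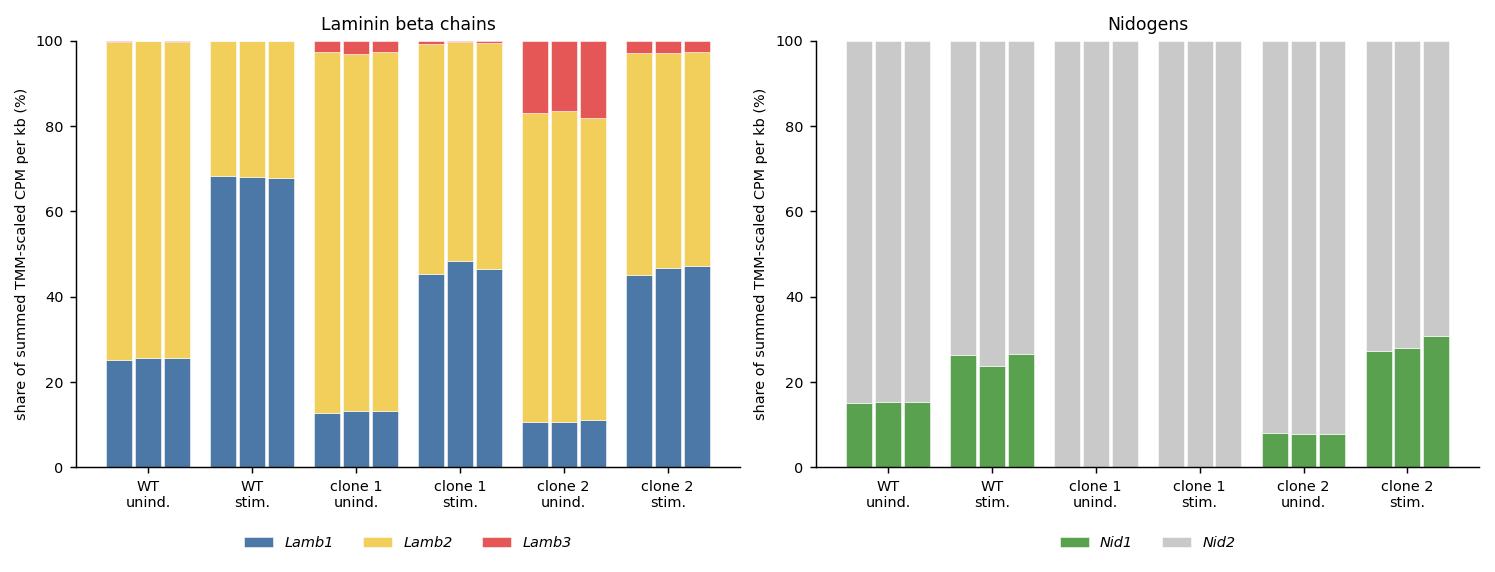
Share (%, stacked to 100) of the summed TMM-scaled CPM per kb held by each laminin beta chain (left) and each nidogen (right), 1 bar per library, 3 bars per group. *Lamb1* held 68.1% of the beta chain sum in stimulated WT and 45.1% to 48.3% in the stimulated clone libraries (per kb of exonic length), and *Nid1* held none of the nidogen sum in stimulated clone 1.

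*Lamc1*, the gamma chain shared by most laminins, and *Lama4* were the tested members that passed both limits in none of the 11 comparisons. *Lamc1* was at 471, 360.3 and 359.9 CPM in uninduced WT, 396, 408 and 389.6 in stimulated WT, 442, 445 and 443 in uninduced clone 1 and 381, 463 and 418 in stimulated clone 1. In clone 2 it was at 502, 476 and 489 CPM uninduced and 540.1, 578 and 572 stimulated, above every WT library. The differences between clone 2 and WT were 0.30 ± 0.08 uninduced and 0.50 ± 0.08 stimulated (log2, adjusted p = 0.00371 and 2.8e-05), and those of clone 1 were 0.16 ± 0.08 and 0.08 ± 0.08 (adjusted p = 0.105 and 0.408).

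*Nid1*, which encodes the linker between laminin and type IV collagen, was at or near 0 in clone 1 and expressed in the other groups. *Nid1* was at 350.5, 329 and 319 CPM in uninduced WT and 175, 171 and 169 in stimulated WT. Clone 2 was at 121, 116 and 118 CPM uninduced and 178, 194 and 205 stimulated. The clone 1 libraries had 3, 2 and 8 counts of *Nid1* uninduced and none when stimulated, against 20656 and 11286 counts over the matching WT libraries. *Nid1* was 1434-fold lower in uninduced clone 1 than in WT (log2 fold change -10.49 ± 0.13, adjusted p = 1.06e-29), and at least 3881-fold lower in stimulated clone 1 (adjusted p = 3.63e-29). The uninduced fold rests on 13 counts, and without clone 1 replicate 3, which held 8 of them, it was 2429-fold (log2 fold change -11.25). Clone 2 was 2.81-fold below WT when uninduced (-1.49 ± 0.06, adjusted p = 3.57e-18) but differed by only 0.16 ± 0.06 when stimulated (adjusted p = 0.0181). *Nid1* was called lower in clone 1 in both treatments under every alternative tried, including each library left out.

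The response of *Nid1* to stimulation had opposite signs in WT and clone 2. It was -0.95 ± 0.06 in WT (adjusted p = 3.6e-14) and 0.70 ± 0.06 in clone 2 (adjusted p = 4.33e-11), each inside the fold limit, and the difference between them was 1.66 ± 0.08 (adjusted p = 3.29e-15), outside it. *Nid1* lies at chr13:13437551-13512269 of GRCm38, with 2.06% of its exonic length under another annotated gene. Its nearest tested neighbours were expressed in clone 1. *Gpr137b*, 43.5 kb before it, differed from WT by -0.13 in uninduced (adjusted p = 0.193) and by 1.75 in stimulated clone 1 (adjusted p = 1.74e-17). *Lyst*, 78.1 kb after it, differed by 0.32 and 0.04 (adjusted p = 0.0123 and 0.719). Over the 370 genes of chromosome 13 that averaged 5 CPM or more, the median log2 difference from WT was 0.09 in uninduced and 0.01 in stimulated clone 1. In clone 2 that median was -0.25 uninduced and -0.28 stimulated.

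*Nid2*, the other nidogen, also binds laminin, and its level fell on stimulation in all 3 genotypes. It was at 1478, 1362 and 1319 CPM in uninduced WT and 366, 406 and 350.3 in stimulated WT. Clone 1 was at 1152, 1218 and 1121 CPM uninduced and 658, 743 and 644 stimulated, so that its stimulated libraries were above all those of WT and of clone 2, which were at 353, 372 and 345 CPM. *Nid2* fell on stimulation by 1.89 ± 0.06 in WT and by 1.52 ± 0.06 in clone 2 on the log2 scale (adjusted p = 2.52e-21 and 3.48e-19), and the change of -0.77 ± 0.06 in clone 1 stayed inside the fold limit (adjusted p = 1.33e-12). The clone 1 response differed from that of WT by 1.12 ± 0.08 (adjusted p = 2.53e-12). The summed nidogen level per kb was 97.1 ± 5.59 CPM per kb in stimulated WT, 132 ± 10.3 in stimulated clone 1, where it was *Nid2* alone, and 96.7 ± 2.99 in stimulated clone 2 (SD, n = 3). *Nid2* shares 8.45% of its exonic length with the neighbouring gene *Rtraf*, and the strand setting of the counting is not given in the sources used here.

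Between 1 and 3 of the 9 tested members passed both limits in each comparison of a clone with WT. In stimulated clone 1, *Lama1*, *Lama2* and *Nid1* were lower, where 9.6% of all tested genes were, and no member was higher, where 9.42% of genes were. In stimulated clone 2, *Lama2* and *Lama5* were lower (background 8.94%) and *Lamb2* was higher (background 7.95%). In uninduced clone 1, *Lama1* and *Nid1* were lower (8.73%) and no member was higher (6.32%). In uninduced clone 2, *Nid1* was lower (9.56%) and again none was higher (5.54%). The median log2 fold change of the 9 members was -0.30, -0.07, -0.25 and 0.10 in these 4 comparisons, with the genes without a count at their bound giving the same values, and the median over all tested genes was -0.02, -0.01, -0.01 and -0.02. *Lama2* was the only member past both limits and lower in both stimulated clones, and *Nid1* the only such member in both uninduced clones. *Lamb1* and *Nid2* were also lower in both uninduced clones, inside the fold limit. For *Nid2* the log2 difference from WT was -0.25 in uninduced clone 1 and -0.44 in uninduced clone 2 (adjusted p = 0.000325 and 1.01e-07).

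**Figure D3:**
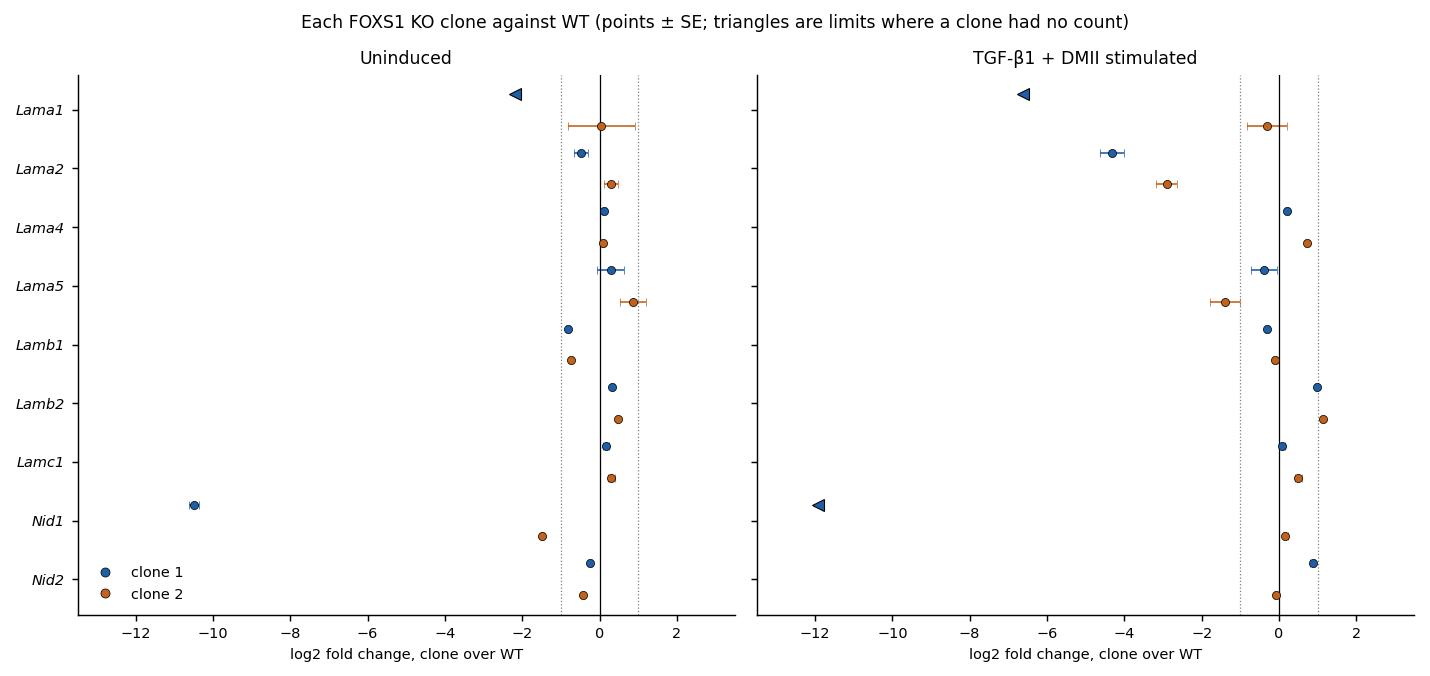
Log2 fold change (x axis) of the 9 tested members (y axis) in clone 1 (blue) and clone 2 (orange) over WT, uninduced on the left and stimulated on the right. Points are fitted values with SE, triangles are the limits that a floor of 3 counts allows where clone 1 had no count, dotted lines mark an absolute log2 fold change of 1, and both clones share the WT libraries; *Lama2* lay beyond -1 in both clones on the right only.

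On stimulation, *Lama1* was called higher in WT (background 6.25% of genes) and *Lamb2* and *Nid2* lower (13.6%). In clone 1, *Lamb1* was higher (5.95%) and *Lama2*, *Lamb2* and *Nid1* were lower (10.7%). In clone 2, *Lama1* and *Lamb1* were higher (6.46%) and *Lama2*, *Lama5* and *Nid2* were lower (11.2%). Tests of the difference in response called *Nid2* higher (5.34%) and *Lama2* and *Nid1* lower (3.46%) for clone 1, and *Nid1* higher (4.89%) and *Lama2* and *Lama5* lower (2.96%) for clone 2. The *Nid1* value for clone 1, -4.37 ± 1.11 (adjusted p = 0.00289), is a fitted difference that rests on 13 counts uninduced and none stimulated, and it was -3.62 without uninduced clone 1 replicate 3 (adjusted p = 0.0392). With a floor of 3 counts over the stimulated group, the fall of *Nid1* in clone 1 is known only to be at least 5.12-fold. No response of *Lama1* could be given for clone 1, which had no count in either treatment. The clones themselves differed in stimulated cells for *Lama1*, *Lama2* and *Nid1*, lower in clone 1 (4.48%), and for *Lama5*, higher in clone 1 (5.5%). In uninduced cells *Lama1* and *Nid1* were lower in clone 1 than in clone 2 (3.78%), *Lama1* by at least 4.53-fold (adjusted p = 0.0218), a call lost without any 1 of the clone 1 libraries or without clone 2 replicate 2 (adjusted p = 0.0527 to 0.0686), and none was higher (4.89%).

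**Figure D4:**
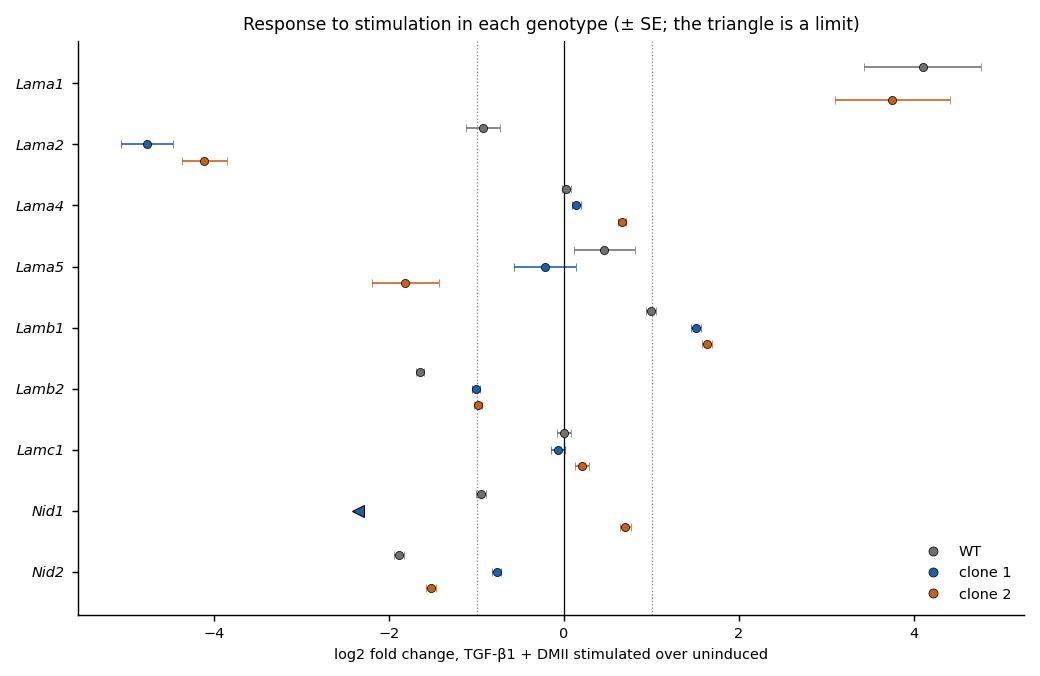
Log2 fold change (x axis, fitted value ± SE) on TGF-β1 + DMII stimulation of the 9 tested members in WT (grey), clone 1 (blue) and clone 2 (orange). The triangle for *Nid1* in clone 1 is the limit that a floor of 3 counts allows, no point is drawn for *Lama1* in clone 1, and dotted lines mark an absolute log2 fold change of 1; *Lamb1* lay to the right of 0 and *Lamb2* and *Nid2* to the left in all 3 genotypes.

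The genomic surroundings of the alpha chain genes were measured as well. *Lama1* spans chr17:67697259-67822647, and its nearest tested neighbour, *Arhgap28*, 20.1 kb after it, was lower than WT in both clones by 3.19 and 1.71 in stimulated and by 1.79 and 1.70 in uninduced cells on the log2 scale (adjusted p of 1.39e-22, 7.01e-17, 8.01e-18 and 1.79e-17). The neighbour on the other side, *Ptprm*, differed by 0.70 and 0.38 in stimulated cells. On chromosome 17, 475 genes averaged 5 CPM or more. Their median log2 difference from WT was 0.07 in stimulated clone 1 and -0.24 in stimulated clone 2. *Lama2* and *Lama4* both lie on chromosome 10, where the 518 genes that averaged 5 CPM or more had a median log2 difference from WT of -0.43 in stimulated clone 1 and 0.05 in stimulated clone 2. *Lama2*, at -4.33 and -2.90, was below both medians, and its neighbour *Arhgap18*, 61.4 kb away, was at -1.16 in stimulated clone 1 (adjusted p = 0.000318) and -0.18 in stimulated clone 2 (adjusted p = 0.571). The part of chromosome-wide shifts in the members' values was not tested.

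Across the 18 libraries the members did not share 1 pattern. As a description over libraries that share their groups and depth, the log2 CPM of *Lamb1* and *Lamb2* had a Pearson r of -0.88, that of *Lamb2* and *Nid2* of 0.80, that of *Lama4* and *Lamc1* of 0.79 and that of *Nid1* and *Nid2* of -0.21. The genes most similar to *Lamb1* were *Fgfr1*, a fibroblast growth factor receptor (r = 0.99), *Cpt1a*, the mitochondrial fatty acid importer (0.98), and *Unc5b* (0.98). Those most similar to *Lamb2* were *AW549877*, *Faah* and *C1ra* (0.99 each). *Adh1* and *Gstm1* were among the genes closest to *Nid2* (0.98 each), and *Nid1* was closest to *Naalad2*, *Ptgr2* and *Arpc5* (0.99 each). *Lama2* was closest to *Vash2*, *Ywhah* and *Ccnd1* (0.98, 0.98 and 0.97), *Lama4* to *Ern1*, *Rev3l* and *N4bp1* (0.93, 0.93 and 0.92), and *Lamc1* to *Son*, *Smg1* and *Ocrl* (0.94, 0.93 and 0.92). *Lama1* was closest to *Ier5*, *Kdelc1* and *Cnot11* (0.96, 0.96 and 0.94), and *Lama5*, with the weakest neighbours, to *Mcm2*, *Mast3* and *Zmiz2* (0.81, 0.80 and 0.78).

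*Lamb3* and *Lamc3* moved in opposite directions in the clones. *Lamb3* was at 2.04, 0.419 and 1.37 CPM in uninduced WT, 18.9, 22.6 and 19.6 in uninduced clone 1 and 155, 150.1 and 169 in uninduced clone 2, where its 23.9 ± 1.51 CPM per kb stood above *Lamb1* at 14.9 ± 0.610 (SD, n = 3). In stimulated cells it was at 0.147, 0.389 and 0.225 CPM in WT, 3.83, 2.25 and 2.46 in clone 1 and 19.4, 19.4 and 17.7 in clone 2. *Lamb3* was 16.0-fold and 124-fold higher than in WT in uninduced and 10.5-fold and 71.5-fold higher in stimulated clone 1 and clone 2, with no overlap of libraries. *Lamc3*, another gamma chain, had 232 counts over the stimulated WT libraries, none in clone 1 and 4 in clone 2, that is at least 79.8-fold lower in clone 1 and lower by 5.36 on the log2 scale in clone 2.

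The partners of laminins in the basement membrane did not move as 1 group. Over all tested genes, 9.42% were called higher and 9.6% lower in stimulated clone 1 and 7.95% and 8.94% in stimulated clone 2, and the median log2 fold change was -0.02 and -0.01. Of 8 genes for type IV collagen and its crosslinking, 6 were tested, and *Col4a1*, *Col4a2* and *Col4a5* were higher in both stimulated clones, with none lower and a list median of 0.84 in each clone. *Col4a1* and *Col4a2*, the chains of the common collagen network, were higher by 2.35 and 1.96 in clone 1 and by 1.86 and 1.48 in clone 2, and *Col4a5* by 1.14 and 1.61. Of 18 other basement membrane genes, 12 were tested. In stimulated clone 1, 1 was higher and 6 were lower, and in clone 2, 2 were higher and 6 were lower, with list medians of -0.97 and -0.93. *Smoc1*, a calcium-binding matrix protein, was higher by 1.84 and 1.37. *Npnt* (nephronectin, an integrin ligand) had 251 counts over the stimulated WT libraries and none in either stimulated clone, at least 86.3-fold and 63.3-fold lower. *Ntn4*, a netrin that binds the laminin gamma chain, had 328 counts in stimulated WT, 3 in clone 1 and 1 in clone 2, a ratio of 113 (95% counting interval 38.3 to 549.7) and 248 (44.2 to 9832). *Col18a1*, the source of endostatin, was lower by 4.60 and 5.25. *Hspg2* (perlecan) differed by -0.11 and 0.11 and *Agrn* (agrin) by 0.59 and -0.12, none past the fold limit.

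Of 16 laminin receptor genes, 15 were tested, and 3 were higher and none lower in stimulated clone 1, while 3 were higher and 2 lower in stimulated clone 2, with list medians of 0.49 and 0.25. The same background of 9.42% higher and 9.6% lower in clone 1 and 7.95% and 8.94% in clone 2 applies, and the 2 receptors lower in clone 2 are a share near it. *Itga6* and *Itgb4*, which encode the chains of a laminin-binding integrin of hemidesmosomes, were higher by 3.43 and 4.39 in clone 1 and by 2.64 and 3.10 in clone 2. *Itgb1*, the beta chain of most matrix integrins, differed by 0.12 and -0.27, and *Dag1* (dystroglycan) by 0.66 and 0.25. Of 13 genes for the sugar chain by which dystroglycan binds laminin, 12 were tested and *Pomgnt2* alone passed, lower by 1.54 and 1.72, which is a share near the background of lower genes (9.6% and 8.94%). The list medians were -0.13 and -0.22. The plot of these genes sets both clones side by side.

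**Figure D5:**
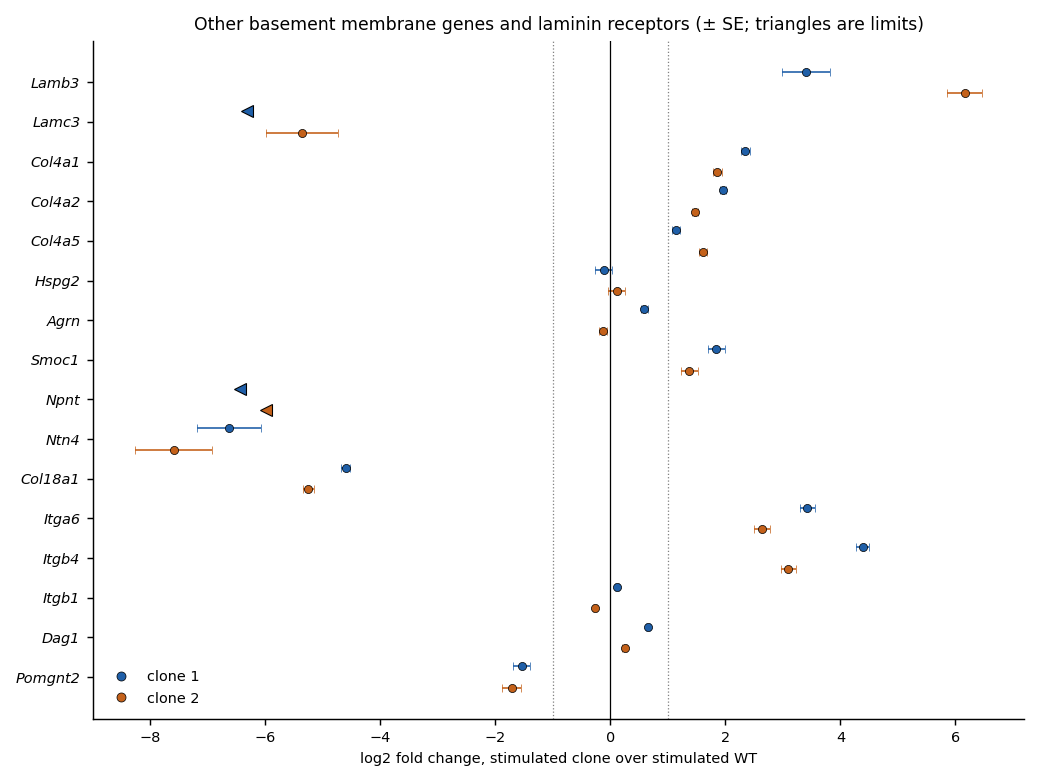
Log2 fold change (x axis, fitted value ± SE) in stimulated clone 1 (blue) and clone 2 (orange) over stimulated WT for *Lamb3*, *Lamc3*, named basement membrane genes and laminin receptors (y axis). Triangles are the limits that a floor of 3 counts allows where a clone had no count, *Ntn4* rests on 3 and 1 counts in the clones, dotted lines mark an absolute log2 fold change of 1, and both clones share the WT libraries; *Col4a1*, *Itga6* and *Lamb3* lay to the right in both clones and *Npnt* and *Col18a1* to the left.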

How the data were processed

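Bulk poly(A) RNA of 18 libraries was sequenced as paired 150 bp reads, and the authors mapped them with HISAT2 to GRCm38 (mm10). The deposited values are raw counts per gene. How reads were assigned to genes (program, annotation release, strand) is not given in the sources used. All 18 count columns were mapped to libraries by their labels.

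The count model was edgeR 4.0.16 in R 4.3.3, with filterByExpr by group (minimum count 10), TMM scaling, 1 mean per group over all 6 groups, glmQLFit (robust) and glmQLFTest, with Benjamini-Hochberg adjustment over the 14317 genes kept. A gene was called a DEG when its adjusted p was below 0.05 and it changed by more than 1 on the log2 scale. Alternatives were DESeq2 1.42.0 (test and size factors), no filter beyond 1 count, only the groups compared, a replicate block, no fold limit and each library left out, and figures were drawn with matplotlib 3.10.9 in Python 3.11.15. Simulated counts with known changes were used to test the procedure. CPM per kb used the exonic lengths in the deposited table. Floors and intervals cover counting error only. Gene positions matched the GENCODE M21 annotation of GRCm38, and promoters came from RefSeq.

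Named genes were all 10 members, *Foxs1*, *Lamb3*, *Lamc3*, *Col4a1*, *Col4a2*, *Hspg2*, *Agrn*, *Itga6*, *Itgb1* and *Dag1*, from each other list up to 3 genes higher and 3 lower in both stimulated clones in order of the smaller of their 2 changes, and the 3 genes most correlated with a member. *Arhgap28*, *Ptprm*, *Arhgap18*, *Gpr137b*, *Lyst* and *Rtraf* are named as neighbours. Some items that this rule names are not reported here. The members and lists were chosen with earlier results of these data known. Replicates of a group correlated with an r of 0.963 to 0.993 across genes and differed by more than counting noise.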

Additional observations from a re-analysis of the deposited data

Results flagged for a closer look

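The response of 4 members to stimulation differed between a clone and WT by a test of the difference itself. For *Lama2* the difference was -3.84 in clone 1 and -3.19 in clone 2 on the log2 scale. For *Nid1* it was 1.66 in clone 2. In clone 1 the fitted value was -4.37, but no stimulated library had a count, so that size is not finite. For *Lama5* it was -2.27 in clone 2, and for *Nid2* it was 1.12 in clone 1. Groups of 3 libraries are too small to test a single library as an outlier of its group. Values with a library left out are given instead.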

How the results depend on the processing

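Of 1165 alternative values for the log2 fold changes of members, 1120 kept their direction and their side of the limits, 13 crossed into a call, 15 out of one and 17 changed sign, none of the last with a call on either side. All 396 for other named genes kept both. The cause was not tested except where fewer libraries or no fold limit enter by construction. Without the fold limit, 7, 6, 6 and 6 members passed in stimulated clone 1 and 2 and uninduced clone 1 and 2 against WT. In the same setting 6 and 9 passed for the responses of WT and clone 2, 5 and 7 for the differences in response of clone 1 and 2, and 9 and 5 between the clones when stimulated and uninduced. With only the groups compared in the fit, 1 member was called in uninduced clone 1 against WT and 1 against clone 2. Leaving out each library in turn gave 1 to 3 members in uninduced clone 1, 1 to 2 in uninduced clone 2, 3 to 5 for the response of WT, 2 to 4 between the stimulated clones and 1 to 2 between the uninduced clones.

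Replicate numbers did not pair the libraries: deviations of same-numbered libraries correlated at -0.0412 to 0.0498, and 5 of 18 libraries correlated better with their own number than with others. With a replicate block, 3 in place of 4 members were called between the stimulated clones, where *Lama5* missed the threshold (adjusted p = 0.0505). The block left the number of members called in the other 10 comparisons as it was.

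Signs turned at values near 0. For *Lamc1* the WT response became -0.00478 with DESeq2 size factors and -0.00517 with the DESeq2 test and ran from -0.0571 to 0.145 without a library, and the clone 1 response ran from -0.136 to 0.00651. For *Lama4* the uninduced difference between the clones became -0.0144 without the filter and ran from -0.0310 to 0.0429 without a library. For *Lama5*, leaving out a library took uninduced clone 1 against WT to between -0.0804 and 1.02 and the clone 1 response to between -0.544 and 0.0109. For *Lama1*, it took uninduced clone 2 against WT to between -0.68 and 3.17 and the difference in response of clone 2 to between -3.48 and 0.37.

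Shares per kb moved with coding length from GENCODE, a setting chosen after seeing the data. The coding length from protein tables was not run, since no such table was used here. In the order of uninduced and stimulated WT, clone 1 and clone 2, *Lama4* held 97.5%, 97.6%, 98.2%, 99.6%, 97.0% and 99.4% of the alpha chain sum and *Lamb1* 35.4%, 77.4%, 19.0%, 58.2%, 14.6% and 57.1% of the beta chain sum. The share of *Lama1* became 0.785% in stimulated WT and 0.389% in stimulated clone 2. That of *Lama2* became 1.03% in stimulated WT, 1.34% in uninduced clone 1 and 2.26% in uninduced clone 2, and that of *Lama3* 0.0271% in stimulated clone 2. That of *Lama5* became 0.532% in stimulated WT, 0.453% and 0.353% in uninduced and stimulated clone 1 and 0.677% and 0.124% in uninduced and stimulated clone 2. Depth limits *Lama1*, *Lama3* and *Lama5* and the near-absent transcripts of the clones, which rest on few counts per library.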
